A study of Homo sapiens with 4 samples.

Results

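The replication-dependent and linker histone genes were examined in A549, a line of human lung adenocarcinoma cells, after knockdown of the long noncoding RNA EPEL. Members were all probes of an Illumina HumanHT-12 BeadChip whose gene symbol in the platform annotation starts with H1-, H2AC, H2BC, H3C or H4C followed by a number, whether or not they gave signal. This rule took 82 of 47228 probes. Of these, 1 is annotated to 2 H3 genes at once and was counted under neither, and the others stand for 72 genes. There were 3 siEPEL arrays, of cells given siRNA 1, siRNA 2 or siRNA 3 against EPEL, and 1 control array, whose cells received a non-targeting siRNA. All cells were A549 transfected with 50 nM siRNA. The labels give a knockdown measurement by RT-qPCR 48 h after transfection, which was not analysed here, and do not say that the samples were separately grown cultures. Any p-value therefore measures the spread among these arrays, which may be technical and also holds differences between the siRNAs.

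Histones H2A, H2B, H3 and H4 form the protein core around which DNA is wound, and the linker histone H1 binds where the DNA enters and leaves that core. Most of these proteins are made in S phase from clustered, intronless, near-identical genes, whose mRNAs end in a stem-loop bound by SLBP instead of a poly(A) tail. Some members are known to give polyadenylated mRNA as well, and others, such as the linker histone gene H1-10, are made outside S phase from ordinary polyadenylated mRNA. The labelling kit named in the labels amplifies RNA from its poly(A) tail.

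Histone promoters are built from a few short elements, and 6 promoters are shown here because they place the genes described below beside the elements of their family. They are the detected gene with the highest siEPEL level in each family among those with a promoter entry, and H2BC4, a gene that was not detected. Each run is the 150 bases before the RefSeq gene start of assembly GRCh38.p14, read along the gene's strand. Capitals mark the CCAAT box, the TATA box (TATAAA) and the octamer (ATTTGCAT) on either strand and, in the H4 gene only, the letters GGTCC. The regions are chr6:26056471-26056620 (minus strand) for H1-2, chr1:149850911-149851060 (plus) for H2AC19, chr6:27146859-27147008 (minus) for H2BC12, chr6:27809901-27810050 (plus) for H3C10, chr1:149832507-149832656 (plus) for H4C14 and chr6:26123927-26124076 (minus) for H2BC4.
H1-2: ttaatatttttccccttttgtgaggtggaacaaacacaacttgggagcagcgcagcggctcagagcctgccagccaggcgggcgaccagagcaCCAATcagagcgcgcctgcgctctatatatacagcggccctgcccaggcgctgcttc
H2AC19: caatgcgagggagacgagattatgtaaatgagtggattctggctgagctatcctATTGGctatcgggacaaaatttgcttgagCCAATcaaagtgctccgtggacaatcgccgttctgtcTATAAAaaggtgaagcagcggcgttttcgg
H2BC12: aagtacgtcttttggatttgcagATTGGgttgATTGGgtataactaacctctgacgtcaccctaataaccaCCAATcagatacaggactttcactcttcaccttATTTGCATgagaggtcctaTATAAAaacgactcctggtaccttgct
H3C10: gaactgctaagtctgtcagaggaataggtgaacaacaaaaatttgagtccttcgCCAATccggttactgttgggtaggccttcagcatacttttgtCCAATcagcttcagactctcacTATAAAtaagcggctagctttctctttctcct
H4C14: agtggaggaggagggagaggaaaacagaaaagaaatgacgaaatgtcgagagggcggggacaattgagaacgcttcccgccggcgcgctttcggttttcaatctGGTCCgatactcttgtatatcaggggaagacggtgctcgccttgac
H2BC4: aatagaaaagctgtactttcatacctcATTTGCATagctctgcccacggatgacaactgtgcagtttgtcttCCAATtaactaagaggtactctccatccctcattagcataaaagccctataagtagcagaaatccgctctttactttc

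Over the 250 bases before the start, 67 of the 72 genes had an entry, taken as the first entry of each gene, and both strands were searched. The octamer ATTTGCAT, bound by POU2F1, was in 14 of 18 H2B and 11 of 16 H2A promoters, in 1 of 11 H3 promoters, and in 0 of 9 H1 and 0 of 13 H4 promoters. It was in 1.66% of all 27305 promoters of the table. CCAAT was in all 16 H2A, all 18 H2B and all 11 H3 promoters, in 8 of 9 H1 promoters and in 3 of 13 H4 promoters, against 33.0% of all promoters. TATAAA was in 43 of the 67 (64.2%), against 11.1% of all. GGTCC, known as the core of the H4 promoter element recognised by HINFP, was in 12 of 13 H4 promoters, while its share of all promoters was 40.4%. The promoters of detected and undetected genes both held these elements. The octamer was in 6 of 19 promoters of detected and 20 of 48 of undetected genes, and TATAAA in 14 of 19 and 29 of 48. CCAAT was in 14 of 19 promoters of detected and 42 of 48 of undetected genes, and GGTCC in 10 of 19 and 12 of 48. A match is only a match of letters.

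Most histone genes gave no signal above background in these cells. A gene was called detected on an array when the detection p-value of a probe, meaning the fraction of negative control beads with an equal or brighter signal, was under 0.01. Of the 72 genes, 20 (27.8%) were detected on at least 1 array and 14 on all 4 arrays, while 52 were detected on none. Over all 20046 named genes of the array, 54.5% were detected on at least 1 array and 48.8% on all 4. The histone genes detected numbered 18, 17 and 18 with siRNAs 1, 2 and 3 and 16 on the control array. The 4 genes detected with siEPEL only (H1-1, H2AC11, H3C7 and H3C10) lay at the edge of detection. Their lowest detection p-values ran between 0.00519 and 0.00779, and the nearest gene outside the threshold, H3C6, had 0.0169. By the brightest probe, 706 of all 10921 genes detected on any array were detected with siEPEL only and 61 on the control array only. The histone genes had 4 and 0 of 20. With 3 siEPEL arrays and 1 control array, detection with siEPEL only is easier by design.

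The share of genes detected ran between 15.4% and 35.3% among the families, on small counts, against 54.5% of all named genes. Of the linker histone genes 3 of 9 were detected, of the H2A genes 6 of 17, of the H2B genes 4 of 18, of the H3 genes 2 of 13 and of the H4 genes 5 of 15. No H3 gene was detected on the control array or on all 4 arrays. The detected H3 genes were H3C7, on 2 siEPEL arrays, and H3C10, on 3.

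The genes known to give polyadenylated mRNA were mostly seen. The list was drawn from textbook knowledge, with earlier results of these arrays known, and held H1-10, H2AC6, H2BC4, H2BC5, H2BC12 and H2BC21 among the genes on the array. All but H2BC4 were detected on all 4 arrays, 5 of 6 (83.3%). Among the remaining 66 genes, 15 (22.7%) were detected on at least 1 array and 9 on all 4. H2BC5, which codes for a core histone H2B, was measured by 3 probes annotated to 2 different transcripts. Both probes for NM_138720 were detected on all 4 arrays, with raw signals of 527, 503 and 451 with siRNAs 1, 2 and 3 and 457 on the control array for the brighter probe. The probe for NM_021063 was detected on none. Its raw signal was 46.5, 52.5 and 48.4 with siRNAs 1, 2 and 3 and 49.6 on the control array, with detection p-values between 0.597 and 0.910. What part the tail of the mRNA, the choice of probe and the level of the gene each had in detection was not tested.

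**Figure D1:**
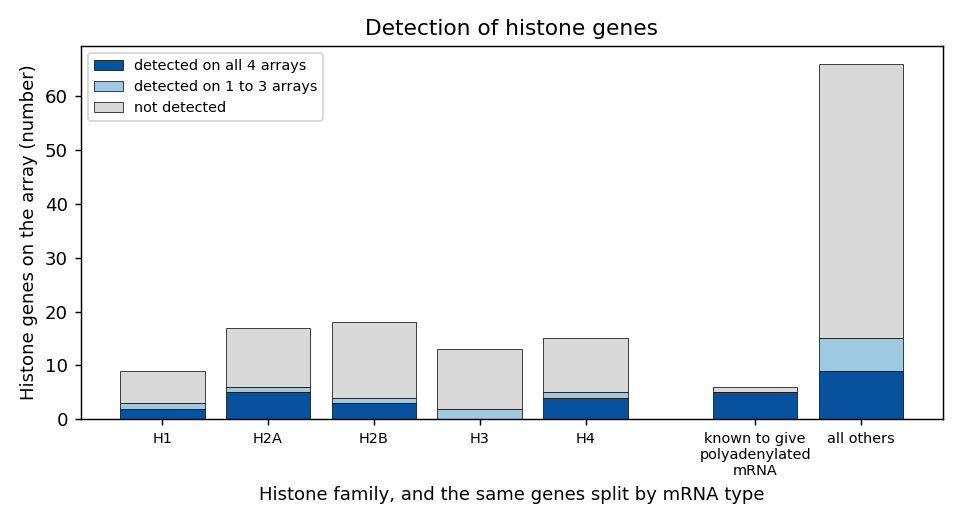
Number of histone genes on the array (vertical axis) by family and, at the right, split by whether the gene is on the list known to give polyadenylated mRNA. Colours give the arrays on which a gene was detected: 14 genes were detected on all 4 arrays, 6 on 1 to 3 arrays and 52 on none.

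Detected genes were spread unevenly over the histone clusters. In the order of the RefSeq annotation (GRCh38.p14), 55 of the genes lie on chromosome 6 and 13 on chromosome 1. On chromosome 1, 7 of 13 (53.8%) were detected, all 7 on all 4 arrays. On chromosome 6, 12 of 55 (21.8%) were detected, 6 of them on all 4 arrays. Over all 20046 named genes of the array, 54.5% were detected on at least 1 array and 48.8% on all 4. The chromosome 1 share was near that of all genes, and the chromosome 6 share was below it. The largest group of neighbours on chromosome 6 held 34 genes, of which 7 were detected. A group of 16 genes there had only H3C10 and H4C12, and a group of 5 had H2BC11, H2AC11 and H2BC12. Of 13 pairs of an H2A and an H2B gene directly next to each other, both were detected in 3, 1 of the 2 in 2 and neither in 8. The pairs with both detected, each on at least 1 array, were H2BC21 with H2AC20, H2BC11 with H2AC11, and H2AC11 with H2BC12. H2AC11 was detected with siRNA 2 only, the array on which H2BC11 was not, so these neighbours were never detected together. The chromosome 1 genes H2AC18 and H2AC19 code for the same H2A protein, and H4C14 and H4C15 for the same H4 protein. Probes for such near-identical copies may bind mRNA of several genes, so the gene named for a signal is uncertain throughout the families.

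**Figure D2:**
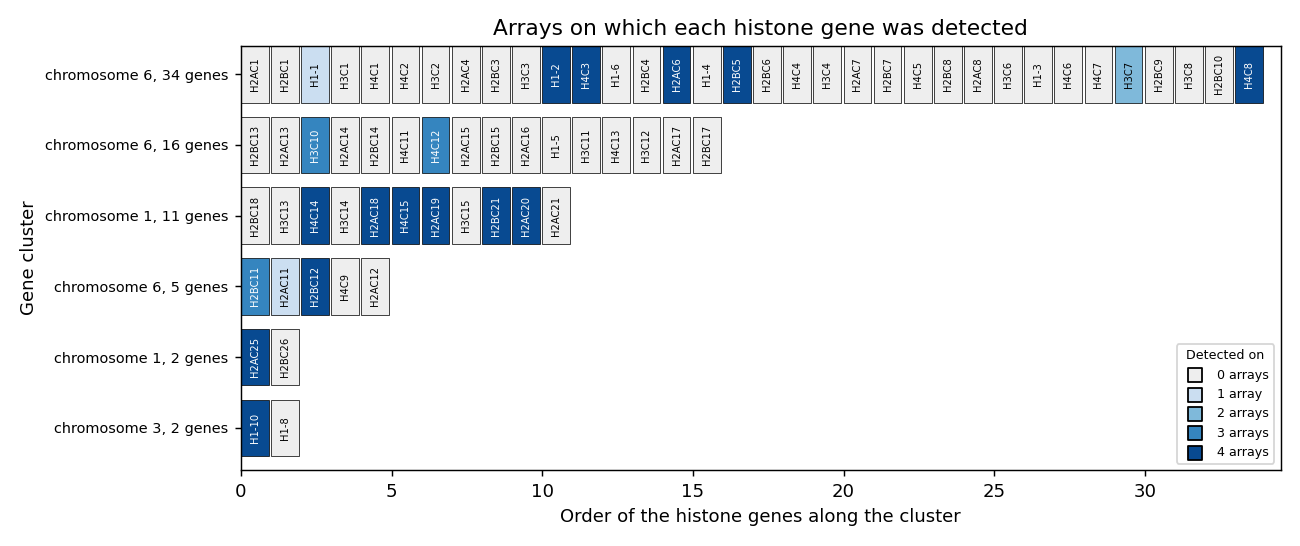
Histone genes in their order along each cluster (horizontal axis, position in the order, not to scale in bases), 1 row per cluster of at least 2 genes. Colour gives the number of arrays on which a gene was detected: in the chromosome 1 group of 11 genes 6 were detected on all 4 arrays, and in the chromosome 6 group of 34 genes 5 were.

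The test of siEPEL against control cells called no histone gene. Signals were background-corrected, quantile normalized and put on a log2 scale with an offset of 16, which makes differences of dim probes smaller. Of 18200 probes tested with limma across the array, 0 (0%) passed an adjusted p of 0.05, and 382 (2.1%) had an unadjusted p under 0.05. Of the 20 histone genes 0 passed, at adjusted p = 1.00 for each, and 0 had an unadjusted p under 0.05. Each siRNA had 1 array, and the single control array was given the same spread as the siEPEL ones, so the values below describe these 4 arrays.

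**Figure D3:**
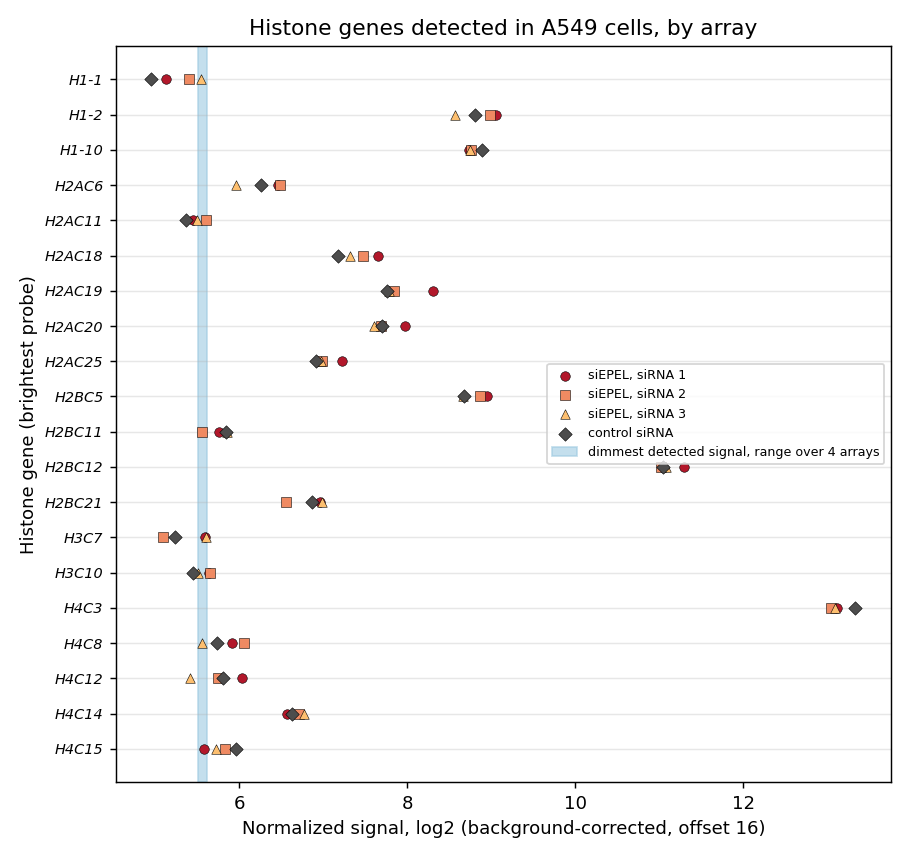
Normalized log2 signal (horizontal axis) of the 20 detected histone genes on each of the 4 arrays, 1 row per gene by its brightest probe. The shaded band spans the dimmest detected signal of the 4 arrays, 5.51 to 5.62. Signals compare arrays within a row and not genes with each other, because probes differ in binding.

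Among the 5 detected H4 genes, H4C3 and H4C15 lay below the control with all 3 siRNAs, and the others lay on both sides. H4C3, a core histone gene, had normalized log2 signals of 13.12, 13.05 and 13.09 with siRNAs 1, 2 and 3, against 13.33 on the control array. The 3 siEPEL arrays lay within 0.07 of each other, and all were below the control. Their folds were 0.862, 0.820 and 0.846, with a log2 fold change of -0.25 ± 0.20 (SE, n = 3 siEPEL arrays and 1 control array; limma adjusted p = 1.00). H4C15 had 5.58, 5.83 and 5.72 with siRNAs 1, 2 and 3, against 5.96 on the control array, a log2 fold change of -0.25 ± 0.21 (SE). Its siEPEL arrays too were all below the control, near the dimmest detected signal. H4C14, a copy coding for the same protein, lay on both sides, with log2 ratios to the control of -0.06, 0.09 and 0.14. H4C8 had ratios of 0.17, 0.32 and -0.19. H4C12, detected on 3 arrays, had 0.23, -0.06 and -0.39. The median of the 5 was -0.06, -0.06 and -0.24 with siRNAs 1, 2 and 3.

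The H2A genes had their highest median with siRNA 1. All 5 H2A genes detected on all 4 arrays were above the control with siRNA 1, 4 of 5 with siRNA 2 and 3 of 5 with siRNA 3. Over all genes detected on all 4 arrays, 50.3%, 50% and 48.8% were above the control with siRNAs 1, 2 and 3. The median log2 ratio of these 5 genes was 0.31, 0.08 and 0.02. H2AC18 had signals of 7.65, 7.47 and 7.32 with siRNAs 1, 2 and 3, against 7.18 on the control array. All 3 siEPEL arrays were above the control, in the order siRNA 1, 2, 3, with a log2 fold change of 0.30 ± 0.22 (SE). Its second probe gave ratios of 0.81, 0.29 and -0.10, so the direction with siRNA 3 differed between its probes.

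Its duplicate H2AC19 had 8.30, 7.84 and 7.78 with siRNAs 1, 2 and 3, against 7.76 on the control array. Only the siRNA 1 array stood off from the control, at 1.45-fold, and the log2 fold change was 0.21 ± 0.25 (SE). H2AC25, on chromosome 1 but in another cluster, had ratios of 0.31, 0.07 and 0.06. H2AC20 had 0.28, -0.0047 and -0.09, and H2AC6, on the polyadenylated list, had 0.20, 0.23 and -0.30. With siRNA 3, H2AC20 and H2AC6 lay below the control and the other H2A genes detected on all 4 arrays above it. H2AC11, seen on 1 siEPEL array, was not detected in control cells, and its bound on the fold did not exceed 1.

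The H2B genes lay on both sides of the control. H2BC12 had signals of 11.29, 11.02 and 11.08 with siRNAs 1, 2 and 3, against 11.04 on the control array, a log2 fold change of 0.09 ± 0.21 (SE). The control lay within the range of the siEPEL arrays. Its second probe gave ratios of 0.26, -0.35 and 0.05 and a log2 fold change of -0.01 ± 0.26 (SE). H2BC5 had 8.95, 8.87 and 8.66 with siRNAs 1, 2 and 3, against 8.68 on the control array. Its second probe for the same transcript gave ratios of 0.19, 0.23 and -0.18, beside 0.27, 0.18 and -0.02 by the brighter one. H2BC21, which lies next to H2AC20, had ratios of 0.09, -0.31 and 0.12. H2BC11, detected on 2 siEPEL arrays and the control array, had -0.08, -0.29 and 0.01. By the brightest probe of each, all 4 H2B genes gave a lower signal on the siRNA 2 array than on the siRNA 1 array, while the second H2BC5 probe gave a higher one. In other families H2AC18, H2AC19 and H4C3 were also lower with siRNA 2, whereas H2AC6, H4C8 and H4C15 were higher. No share over all genes is given here for this order of 2 single arrays.

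Of the linker histone genes, H1-10 gave nearly equal siEPEL values. H1-10, a replication-independent linker histone, had signals of 8.73, 8.76 and 8.75 with siRNAs 1, 2 and 3, against 8.89 on the control array. All 3 siEPEL arrays lay below the control, and they spanned 0.03. The log2 fold change was -0.15 ± 0.20 (SE). H1-2, an S-phase linker histone, had 9.05, 8.99 and 8.57, against 8.81 on the control array, so the control lay between siRNAs 1 and 2 above it and siRNA 3 below it. H1-1 had 5.13, 5.40 and 5.54, against 4.96 on the control array. It was detected with siRNA 3 only, and its bound on the fold did not exceed 1.

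The H3 family was near background throughout. H3C7 had ratios of 0.36, -0.14 and 0.38 and H3C10 of 0.19, 0.20 and 0.06, with neither detected in control cells and no bound on the fold above 1. The probe annotated to 2 H3 genes gave a detected signal with every siRNA but not in control cells. Its log2 signals were 5.89, 6.02 and 6.30 with siRNAs 1, 2 and 3, against 5.48 on the control array. All 3 siEPEL arrays were above the control. The mean of the siEPEL arrays was at least 1.37-fold higher as a bound against the dimmest detected control signal (limma unadjusted p = 0.031, adjusted p = 1.00). Since siEPEL arrays alone carried it past the filter, a higher siEPEL value was built into its selection. The genes it is annotated to, H3C6 and H3C11, each had a probe of their own, detected on no array. Those probes gave ratios of 0.15, -0.60 and -0.20 for H3C6 and -0.05, -0.13 and -0.03 for H3C11. Being undetected, they could not show whether either gene was higher with siEPEL.

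**Figure D4:**
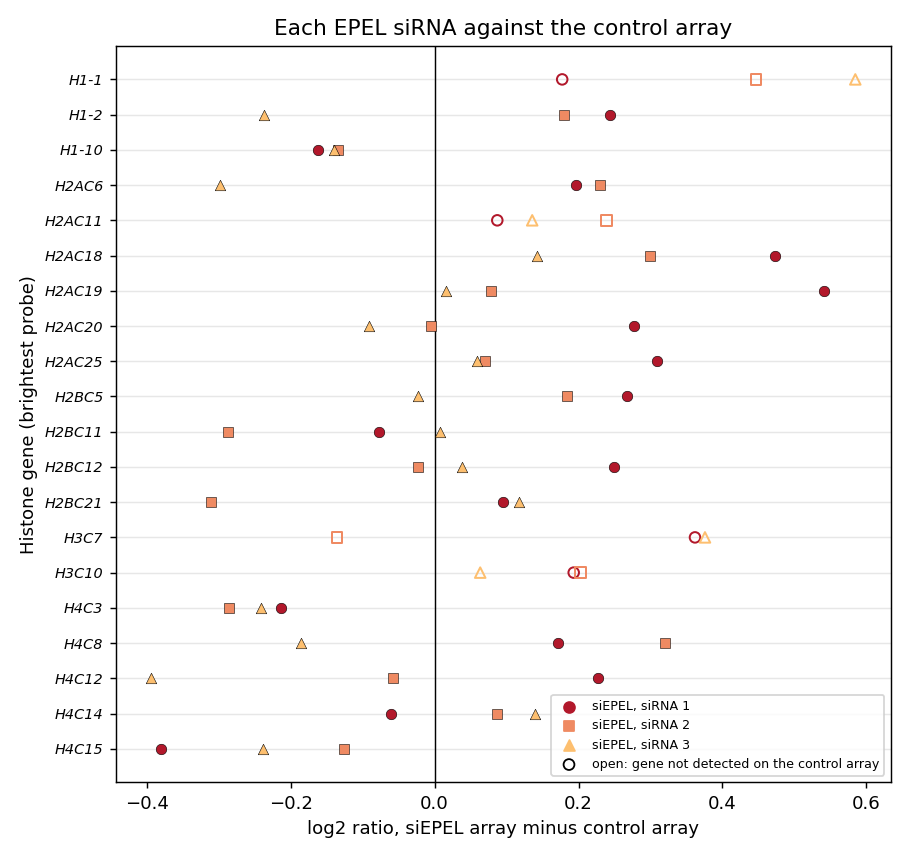
Log2 ratio of each siEPEL array to the control array (horizontal axis) for the 20 detected histone genes, by the brightest probe of each. Open symbols mark the 4 genes not detected on the control array. Among the genes detected on all 4 arrays, H2AC18, H2AC19 and H2AC25 had all 3 ratios above 0, and H1-10, H4C3 and H4C15 had all 3 below 0.

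Counted over the 14 genes detected on all 4 arrays, 3 (21.4%) had all 3 siEPEL arrays above the control and 3 (21.4%) had all 3 below. Over all 9775 genes detected on all 4 arrays the shares were 20.1% and 20.5%, so the histone genes were near the background in both directions. The 3 ratios of a gene share the control array. The count above was 4 of 14 without siRNA 1, 5 of 14 without siRNA 2 and 7 of 14 without siRNA 3. The background above was then 29.8%, 29.4% and 30.4%. With siRNA 1 10 of the 14 genes were above the control, with siRNA 2 8 and with siRNA 3 6. The median log2 ratio of the 14 genes was 0.22, 0.07 and -0.06 with siRNAs 1, 2 and 3, a mean of 0.08 ± 0.14 (SD, 3 siRNAs). Over all genes detected on all 4 arrays the corresponding medians were 0.002, 0 and -0.0046. All 20 detected genes had a median log2 fold change of 0.08, but this includes the 4 genes that passed the filter only through siEPEL arrays.

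Genes outside the clusters that code for replacement histones lay mostly below the control. These proteins are placed into chromatin outside replication or at special sites. Of 11 listed genes 10 were measured, and 0 passed in either direction. The medians were -0.24, -0.05 and -0.07 with siRNAs 1, 2 and 3, and 4 of 10 genes had all 3 ratios below 0 and 1 all 3 above, against 20.3% and 20.5% of all genes measured. H2AZ2, an H2A variant gene, had ratios of -0.57, -0.17 and -0.22, a log2 fold change of -0.32 ± 0.23 (SE). CENPA, the H3 variant of centromeres, had -0.55, -0.12 and -0.22, and its second probe -0.58, -0.16 and -0.40. Both genes were lowest with siRNA 1, the array on which the H2A cluster genes had their highest median.

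Factors of histone gene transcription and mRNA 3′ end processing held a median near the control. Of 16 listed genes 14 were measured and 0 passed, with medians of -0.09, -0.04 and -0.03 with siRNAs 1, 2 and 3. Every siEPEL array lay below the control for 4 of the 14 genes (28.6%) and above it for 2 (14.3%), against 20.3% and 20.5% of all genes measured. NPAT, the coactivator of histone gene transcription at the histone locus body, had signals of 6.59, 6.69 and 6.63 with siRNAs 1, 2 and 3, against 7.02 on the control array. All 3 siEPEL arrays were below the control, with a log2 fold change of -0.38 ± 0.20 (SE; limma adjusted p = 1.00). ZNF473, a protein of histone pre-mRNA cleavage, had ratios of -0.17, -0.42 and -0.08, and 0.16, -0.59 and 0.02 by its second probe. SLBP, which binds the histone stem-loop, had ratios of -0.01, -0.15 and 0.05 by its brighter probe and 0.07, 0.29 and 0.30 by the other, so its probes disagreed in sign with siRNAs 1 and 2.

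Histone chaperones, which carry histones to and from DNA, had medians below the control with siRNAs 1 and 2. Of 21 listed genes 19 were measured and 0 passed, with medians of -0.15, -0.25 and 0.01 with siRNAs 1, 2 and 3. Of the 19 genes, 6 (31.6%) lay below the control on every siEPEL array and 1 (5.26%) above it on every one, against 20.3% and 20.5% of all genes measured. CHAF1A, a subunit of the chromatin assembly factor that deposits new histones at replication forks, had ratios of -0.56, -0.88 and -0.23. NASP, a chaperone of soluble histones, had -0.60, -0.30 and -0.07, a log2 fold change of -0.32 ± 0.25 (SE).

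**Figure D5:**
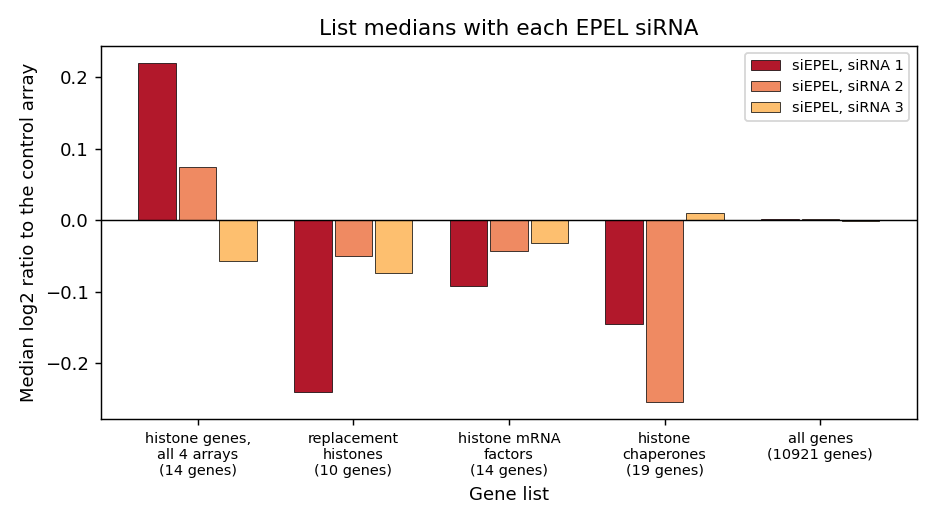
Median log2 ratio to the control array (vertical axis) with each EPEL siRNA for the 14 histone genes detected on all 4 arrays, the 3 related lists and all 10921 genes measured. With siRNA 1 the histone genes had a median of 0.22 and the replacement histones of -0.24.

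The arrays were alike in overall signal. The mean raw signal was 394, 381 and 387 with siRNAs 1, 2 and 3 and 404 on the control array, and between 35.0% and 36.2% of probes were detected. Of 9 epithelial and A549 marker genes on the array 8 were detected on all 4 arrays and AKR1C1 on none. Their summed linear signal was 76911, 72254 and 76015 with siRNAs 1, 2 and 3 and 78297 on the control array. Of 8 markers of other cell types, PTPRC, CD3E, PECAM1, VWF and DCN were detected on none, CD68 and COL3A1 on all 4 and COL1A1 on 2. Their summed signal was 714, 737 and 717 with siRNAs 1, 2 and 3 and 543 on the control array, and its part in the histone values was not tested. In RNA from whole cultures, a change in the share of cells in S phase and a change in histone mRNA per cell cannot be told apart. No probe carried the name EPEL, so the depth of the knockdown on these arrays was not analysed here.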

How the data were processed

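RNA of 3 siEPEL samples and 1 control sample was measured on HumanHT-12 BeadChips. The deposited raw intensity is a mean bead signal per probe on a linear scale. The submitters' processing notes name BeadStudio as the software. It comes with a detection p-value per probe and array, named as such per the file headers, with values in steps of 1 in 770. A further deposited table holds the authors' processed intensity, background-subtracted, with method not given in the sources used here. It served as an alternative. Its medians were 10.77, 10.77 and 10.74 with siRNAs 1, 2 and 3 and 10.77 on the control array. For H4C3 it gave a log2 fold change of -0.247, as in the main values, and for dim H1-1 0.46 against 0.40. For bright genes it is therefore hardly a separate check.

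In R 4.3.3, the function neqc from limma 3.58.1 turned raw intensities into log2 values (normexp background, quantile, offset 16). The 18200 probes detected at p under 0.01 on any array entered lmFit and eBayes. Tests were 2-sided, p-values were adjusted by Benjamini-Hochberg across these probes, and 0.05 was the threshold. There were 2 residual degrees of freedom plus 6.83 from the prior. A gene was represented by its brightest tested probe. Of 47228 probes, 30113 had 1 gene symbol, 8 several and 17107 none, and updating by gene identifier changed 0 symbols. All 72 histone symbols were in the RefSeq table of GRCh38.p14, which gave chromosomes and neighbours. Histone genes within 20 annotated genes of each other formed a cluster. Named genes were every detected histone gene, the 2 of each related list furthest from the control, and SLBP and NPAT. A bound set the siEPEL mean against the higher of the dimmest detected control signal (log2 5.62) and the probe's own. Members and lists were chosen with earlier results of these data known. The number of arrays limits the precision. Alternatives covered background correction, normalization, the authors' values, offset, detection filter, variance model, probe choice and each siEPEL array left out.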

Additional observations from a re-analysis of the deposited data

How the results depend on the processing

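No histone gene passed the limma test under any of the 15 alternatives (count 0 each, lowest adjusted p = 1.00), and 13 of the 20 genes kept their direction in each alternative that gave them a value (requiring detection on all 4 arrays gave one for 14 genes). For all genes, neither the number passing under each alternative nor the share keeping their direction is given here. The main test called no probe of the whole array. Among those 13 genes, H1-1, H2AC11, H3C7 and H3C10 passed the filter only through siEPEL arrays, so a higher siEPEL value was built into their selection. Counts with all siRNAs above the control, 6 of 20 genes, were 3 when detection on all 4 arrays was required and 21 of 72 with no detection filter. The 6 include H1-1, H2AC11 and H3C10, and the share over all genes measured was 20.5%. Counts below, 3 of 20 against 20.3% of all genes measured, were 17 of 72 with no filter. No share over all genes is given here for the counts with no filter. Leaving out 1 siEPEL array gave 7 to 10 genes above (10 without siRNA 3) and 3 to 5 below (5 without siRNA 1). Chosen after seeing the data, the same for the 14 genes detected on all 4 arrays gave 4 to 7 above, in place of 3, and 3 to 4 below. Over all 9775 genes detected on all 4 arrays, 29.8%, 29.4% and 30.4% were above without siRNA 1, 2 or 3. The shares below were 30.9%, 30.3% and 30.0%. For the 20 genes no such share is given. Fewer siRNAs make agreement easier by construction. The median log2 fold change of 0.08 ranged between 0.03 without siRNA 1 and 0.15 without siRNA 3, and was 0.03 with no filter.

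Directions that turned belonged to small values. H2BC12 was -0.014 by its second probe. SLBP was 0.092 by the mean of its probes and 0.22 by its second probe, and -0.080 to 0.018 with 1 array left out. With 1 array left out, H1-2 ranged from -0.028 to 0.21, H2AC20 from -0.048 to 0.14, H2AC6 from -0.051 to 0.21, H2BC21 from -0.11 to 0.11, H4C8 from -0.0074 to 0.25 and H4C12 from -0.23 to 0.085. No paired analysis was possible because the control has 1 array and shares only 1 replicate number with siEPEL. Dim H3 genes are limited by their signal over background.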
